A study of Mus musculus with 9 samples.

Results

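The 47 genes described here encode the proteins that copy chromosomal DNA and make its building blocks, and they were chosen by symbol from the 24060 genes of the deposited expression table. All 47 symbols were found, each once, and 46 of them exceeded 1 TPM in at least 1 sample and were tested among 12115 genes. Mcm10 did not reach 1 TPM in any sample and was not tested. The members were sorted into 8 steps of replication by what their products do. The first were licensing (5 genes), helicase (12), polymerases and primase (8), and clamp and clamp loading (6). The others were single-strand binding (3), lagging-strand maturation (2), nucleotide supply (6, with Ung, which removes uracil from DNA), and chromatin and checkpoint at the fork (5).

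The cells came from the transnuclear mouse lines Rop7-I, Rop7-II and Rop7-III, each derived by nuclear transfer from 1 CD8 T cell and held on a BALB/c background. All carry rearranged T-cell receptor genes specific for the same epitope of the Toxoplasma protein Rop7 on H-2Ld. The paper describes the profiled cells as homozygous, a term it uses for these receptor genes. Each line stands for 1 donor clone, so that a difference in receptor and any other difference between the lines cannot be told apart. Unstimulated spleen cells were left overnight in medium holding 10 ng per ml of IL-2, a T-cell growth factor, with no antigen added, and CD3+ CD8+ cells binding the Rop7 tetramer were then purified by sorting. There were 3 samples per clone, labelled as biological replicates, and nothing names the animals behind them, so p-values measure the spread between these samples. Ages and sexes are not used here.

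Replication starts when the origin recognition complex, with Cdc6 and Cdt1, places the ring of Mcm2 to Mcm7 on DNA in G1. In S phase Cdc45 and the GINS proteins join the ring to form the moving helicase, primase and the polymerases copy the strands held on the Pcna clamp, and ribonucleotide reductase and thymidylate synthase keep up the supply of deoxynucleotides. Naive T cells mostly rest in G0 and raise most of these genes when they enter the cell cycle, as they do after antigen. In bulk RNA, fewer cells that express a gene and less RNA per cell cannot be told apart.

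The labelled cell type was checked against its markers. Cd8b1 lay between 2052 and 2386 TPM in the 9 samples, and the summed level of 7 CD8 T-cell markers lay between 6129 and 6950 TPM. Cd4, the defining marker of helper T cells, did not exceed 0.94 TPM except in Rop7-II replicate 1, where it was 6.75 TPM. In that sample all 14 of 14 B-cell markers, 9 of 9 myeloid markers and 3 of 3 CD4 T-cell markers had their highest level of the 9 samples. The summed level of the B-cell markers was 2390 TPM there, against 188 and 259 TPM in the other Rop7-II samples, 401 to 1034 TPM in the Rop7-I samples and 146 to 309 TPM in the Rop7-III samples. The myeloid sum was 792 TPM there and 134 to 330 TPM elsewhere. The sum of 4 erythroid markers, 1 of them at 0 in every sample, varied within each clone. It was 119 to 513 TPM in Rop7-I, 0.84 to 111 TPM in Rop7-II and 1.73 to 194 TPM in Rop7-III. The sum of 4 NK-cell markers lay between 201 and 256 TPM in the 9 samples. The part of these markers in the results was not tested. The called members of the comparisons with Rop7-II and the counts of called members are also given without Rop7-II replicate 1. So are the counts of members by level for Rop7-III with Rop7-II.

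All 8 steps were represented in these unstimulated cells, but the genes of 1 step differed widely in level. TPM is a level per length of transcript, so that genes can be set side by side. Averaged over the 9 samples, 32 members lay at or above 10 TPM, 13 lay under 5 TPM, and 2, Cdc6 and Mcm10, lay under 1 TPM. The median of the member means was 21.0 TPM, and that of all tested genes 26.9 TPM. Pcna, the sliding clamp, was the most abundant member at 206 TPM, followed by Rpa1 at 202 TPM and Mcm7 at 118 TPM. The members together took up 0.160 to 0.175% of all transcripts in a sample.

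**Figure D1:**
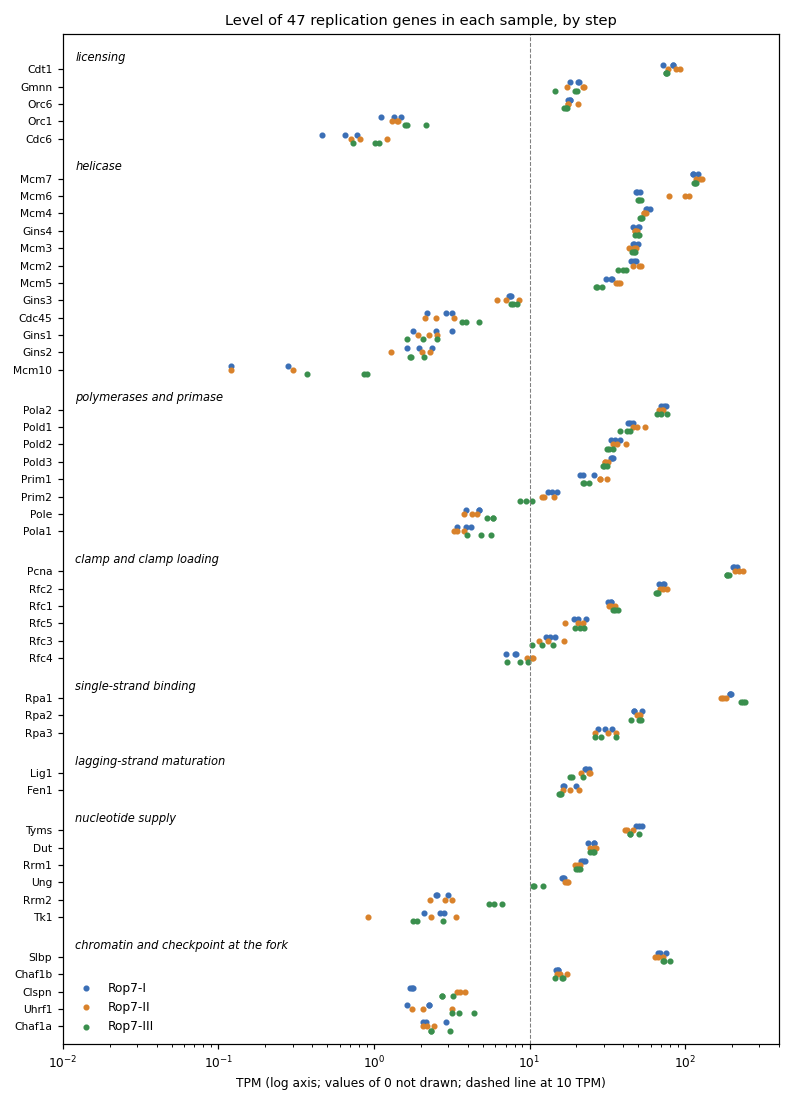
Level of each of the 47 members in TPM (horizontal log axis) by step, with 1 point per sample coloured by clone. Most members sit to the right of the dashed line at 10 TPM, while Cdc6, Orc1, Cdc45, Gins1, Gins2, Mcm10, Rrm2 and Tk1 lie well to its left in every clone.

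Averaged as log2(TPM + 1) over the 46 tested members, the level was 4.26 ± 0.02 in Rop7-I, 4.31 ± 0.05 in Rop7-II and 4.27 ± 0.03 in Rop7-III T cells (SD, n = 3), so that the clones differed by no more than the larger SD. Among the steps, the chromatin and checkpoint genes averaged 2.99 ± 0.05 in Rop7-I, 3.16 ± 0.07 in Rop7-II and 3.27 ± 0.06 in Rop7-III (SD, n = 3). The lagging-strand genes averaged 4.41 ± 0.07, 4.44 ± 0.09 and 4.21 ± 0.07. The clone means of each remaining step lay within 0.11 of each other. The mean of the 5 chromatin and checkpoint genes leaned on a few of them. Between Rop7-III and Rop7-I the log2 differences were 0.50 for Clspn and 0.62 for Uhrf1, and 0.05 to 0.10 for Chaf1a, Chaf1b and Slbp. Between Rop7-I and Rop7-II they were -0.75 for Clspn and -0.11 to 0.06 for the other genes of the step.

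Differences between clones were then read gene by gene. A gene was called when its adjusted p from limma was under 0.01. Comparing Rop7-III with Rop7-II, 7 of 46 members were called (15.2%), against 12.3% of all tested genes. Rpa1 and Rrm2 were higher in Rop7-III (4.35% of members, against 6.39% of all genes), and Mcm2, Mcm5, Mcm6, Pcna and Ung were lower (10.9%, against 5.89%). Comparing Rop7-III with Rop7-I, 4 members were called (8.7%, against 4.85% of all genes), with Rpa1 and Rrm2 higher (4.35%, against 2.58%) and Prim2 and Ung lower in Rop7-III (4.35%, against 2.28%). Comparing Rop7-I with Rop7-II, Mcm6 and Clspn were called (4.35%, against 7.53% of all genes), and both were lower in Rop7-I. Lower calls were made for 3.85% and higher calls for 3.67% of all genes there. When Rop7-II was set against the mean of both other clones, 6 members were called (13%, against 12.2% of all genes). Mcm5, Mcm6, Prim1, Ung and Clspn were higher in Rop7-II (10.9%, against 5.95%) and Rpa1 was lower, where 6.26% of all genes were lower.

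The samples of the compared clones did not overlap in 23 members for Rop7-III with Rop7-II (50%, against 40.7% of all genes), in 21 for Rop7-III with Rop7-I (45.7%, against 38.2%) and in 11 for Rop7-I with Rop7-II (23.9%, against 35%). The Rop7-II samples lay apart from all others in 7 members (15.2%, against 19.9%).

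These counts rest on 2 to 7 members and were not tested against those of all genes. The share of called members was above that of all genes in 3 comparisons and below it for Rop7-I with Rop7-II. The median differences of the members were near 0. The median log2 difference was -0.04 for Rop7-III minus Rop7-II, -0.02 for Rop7-III minus Rop7-I and -0.03 for Rop7-I minus Rop7-II, against -0.02, -0.00 and -0.01 over all tested genes. No member was called with a difference of at least 2-fold on the log2(TPM + 1) scale, although Rrm2 had a mean of 6.01 TPM in Rop7-III against 2.77 and 2.68 TPM in Rop7-II and Rop7-I, and Clspn had 3.61 TPM in Rop7-II against 1.75 TPM in Rop7-I. The comparisons share samples, so that a member called in several of them is not independent evidence. Without Rop7-II replicate 1, 6 members were called for Rop7-III with Rop7-II (Mcm2 was lost), the same 2 for Rop7-I against Rop7-II, and 3 when Rop7-II was set against both others (Mcm5, Mcm6 and Rpa1), against 10.6, 6.69 and 9.23% of all genes.

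**Figure D2:**
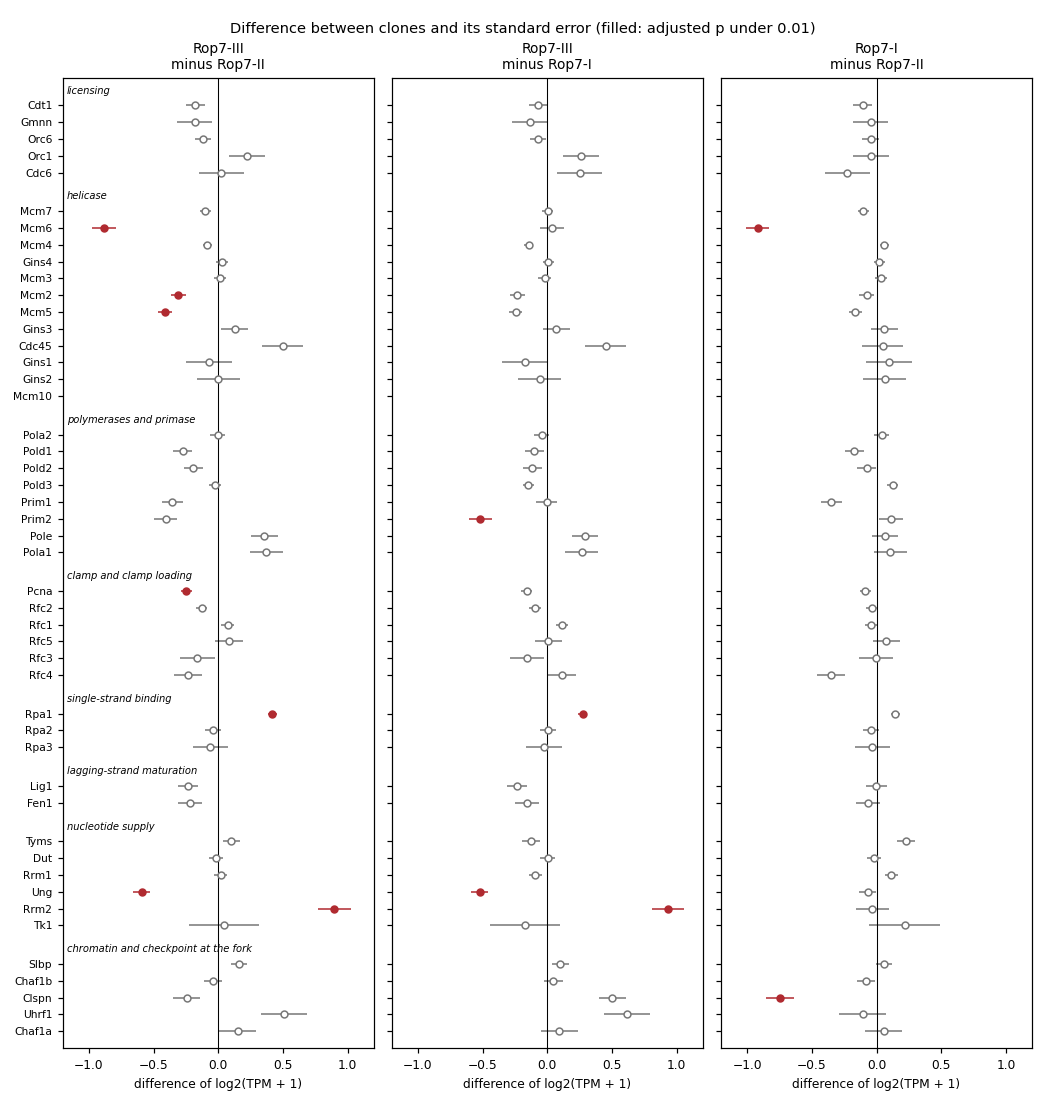
Difference in log2(TPM + 1) of each tested member between pairs of clones, by step, with the standard error from limma as bars and called members filled. Most open points lie within 0.5 of 0, and Mcm6 stands far to the left in both comparisons with Rop7-II while Rrm2 stands far to the right in both comparisons of Rop7-III.

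Of the 5 licensing genes none was called by limma in any comparison, and at an unadjusted p under 0.05 Cdt1 alone passed, for Rop7-III with Rop7-II, where 37.8% of all genes did (28% for Rop7-III with Rop7-I and 32.1% for Rop7-I with Rop7-II). Cdt1, the loading factor that places the Mcm ring at origins, was the highest of the step with clone means of 80.0, 86.2 and 75.9 TPM in Rop7-I, Rop7-II and Rop7-III. Cdc6, its partner, was the lowest at 0.63, 0.913 and 0.937 TPM. The remaining licensing genes were Orc1 and Orc6, subunits of the origin recognition complex, and Gmnn, which holds Cdt1 inactive outside G1. Their log2 differences lay between -0.18 and 0.26 in the 3 pairs of clones. The high level of Cdt1 beside the low level of Cdc6 and Orc1 was shared by all samples.

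In the helicase step Mcm6, a subunit of the Mcm2 to Mcm7 ring, had the largest difference between Rop7-II T cells and the other clones, and Mcm5 was called as well. Mcm6 lies on chromosome 1 from 128331575 to 128359705 (GRCm38). It stood at 48.05, 49.2 and 50.9 TPM in the Rop7-I samples, at 100.2, 106 and 78.8 TPM in the Rop7-II samples, and at 50.03, 50.4 and 51.7 TPM in the Rop7-III samples. All 3 Rop7-II samples lay above every other sample, and Rop7-I and Rop7-III overlapped. The lowest Rop7-II sample was replicate 3 and the highest was replicate 2, with replicate 1 between them. Earlier results of these data had shown that Mcm6 differs in Rop7-II, so that its p-values here are not independent support. Mcm6 was 1.87-fold higher in Rop7-II T cells than in the mean of both others, a log2 difference of 0.90 (SE 0.08, adjusted p = 8.28e-05 from limma). Without Rop7-II replicate 1 the difference was 0.86 (adjusted p = 4.56e-04). By pairs, Rop7-III differed from Rop7-II by -0.88 (SE 0.09, adjusted p = 1.95e-04), and by -0.84 without that sample (adjusted p = 7.37e-04). Rop7-I differed from Rop7-II by -0.92 (SE 0.09, adjusted p = 2.56e-04), and by -0.88 without it (adjusted p = 9.19e-04). Rop7-III and Rop7-I differed by 0.04 (SE 0.09, adjusted p = 0.835).

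Mcm6 was then set against the other subunits of its own ring, using the same Mcm6 values as above. The ring protein holds 1 copy of each of its 6 subunits, and RNA levels do not measure that make-up. The mean TPM of the other 5 lay between 55.4 and 63.7 in the 9 samples. The ratio of Mcm6 to that mean was 0.798, 0.835 and 0.837 in the Rop7-I samples. It was 1.57, 1.75 and 1.25 in the Rop7-II samples and 0.903, 0.891 and 0.907 in the Rop7-III samples. From the highest down, Mcm6 ranked 2 of 6, behind Mcm7, in each Rop7-II sample and 3 or 4 of 6 elsewhere. Mcm3 had clone means of 47.5, 46.4 and 46.8 TPM and Mcm4 of 57.6, 55.2 and 52.0 TPM. Mcm7 had 115, 124 and 115 TPM. None of these 3 was called in any comparison.

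**Figure D3:**
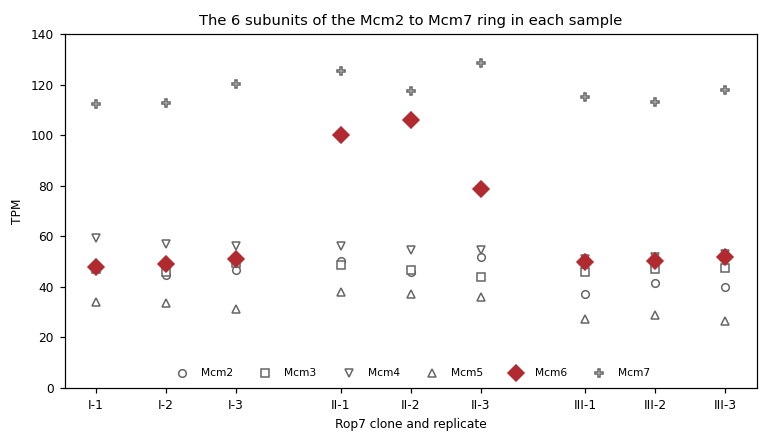
TPM of the 6 ring subunits (vertical axis) in each of the 9 samples, labelled by clone and replicate. Mcm6 (filled) lies among Mcm2, Mcm3 and Mcm4 in Rop7-I and Rop7-III, and above them at 78.8 to 106 TPM in Rop7-II.

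Mcm5, on chromosome 8 from 75109468 to 75128439, was graded over the clones. It stood at 34.1, 33.5 and 31.1 TPM in Rop7-I, at 37.9, 37.2 and 35.9 TPM in Rop7-II and at 27.3, 29.0 and 26.6 TPM in Rop7-III. No samples of different clones overlapped, and Rop7-III lay lowest. The log2 difference between Rop7-III and Rop7-II was -0.41 (SE 0.05, adjusted p = 5.73e-04 from limma), and without Rop7-II replicate 1 it was -0.39 (adjusted p = 0.00216). Rop7-II exceeded the mean of both others by 0.29 (adjusted p = 0.00192), and by 0.27 without that sample (adjusted p = 0.00834). The order of Rop7-I below Rop7-II did not pass the test (-0.16, adjusted p = 0.0548), nor did that of Rop7-III below Rop7-I (-0.25, adjusted p = 0.0147).

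Mcm2, on chromosome 6 from 88883474 to 88898780, had 48.3, 44.9 and 46.9 TPM in the Rop7-I samples, 50.2, 46.03 and 51.8 TPM in Rop7-II and 37.3, 41.6 and 40.0 TPM in Rop7-III. All Rop7-III samples lay below all others, and Rop7-I and Rop7-II overlapped. The log2 difference between Rop7-III and Rop7-II was -0.31 (SE 0.06, adjusted p = 0.00461 from limma). It was -0.30 without Rop7-II replicate 1, with an adjusted p of 0.0141, and the call was likewise lost without Rop7-II replicate 3 (-0.27, adjusted p = 0.0176), Rop7-III replicate 1 (-0.27, adjusted p = 0.0206) or Rop7-III replicate 3 (-0.32, adjusted p = 0.0162).

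The sequences just upstream of these 3 genes are shown because the 3 subunits were called together but differed in how. They are from RefSeq on GRCm38.p6, read 5′ to 3′ on the gene's strand up to the base before the annotated start, and capitals mark words of the type bound by E2F, the family of factors that drives S-phase genes. The words searched were TTTCCCGC, TTTCGCGC, TTTGCCGC and TTTGGCGC on both strands, and overlapping matches were counted separately.
Mcm6, chr1:128359706-128359955, minus strand: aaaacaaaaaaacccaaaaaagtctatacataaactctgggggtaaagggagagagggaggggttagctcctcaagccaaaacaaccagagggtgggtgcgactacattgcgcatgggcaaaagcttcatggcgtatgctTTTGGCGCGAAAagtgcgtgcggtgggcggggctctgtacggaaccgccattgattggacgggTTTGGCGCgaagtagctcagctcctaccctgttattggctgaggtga
Mcm5, chr8:75109259-75109467, plus strand: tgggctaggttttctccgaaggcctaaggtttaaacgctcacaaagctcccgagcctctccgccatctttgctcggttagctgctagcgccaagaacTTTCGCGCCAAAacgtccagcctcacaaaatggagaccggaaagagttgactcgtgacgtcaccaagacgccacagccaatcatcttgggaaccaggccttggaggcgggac
Mcm2, chr6:88898781-88899030, minus strand: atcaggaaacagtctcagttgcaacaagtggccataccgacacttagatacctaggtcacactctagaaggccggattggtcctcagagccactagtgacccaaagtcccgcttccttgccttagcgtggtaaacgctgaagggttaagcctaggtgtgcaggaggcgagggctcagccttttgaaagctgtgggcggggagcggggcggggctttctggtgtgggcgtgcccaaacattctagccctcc
Mcm6 held 3 words, of which 2 overlap on opposite strands and the last lies 40 bases before the start. Mcm5 held 2 overlapping words, and Mcm2 held none in this window. Over windows from 250 bases before to 50 after the start, 15 of 39 members with a window held at least 1 word (38.5%), against 704 of 27025 genes (2.6%). The 15 were Mcm3, Mcm5, Mcm6, Mcm7, Orc1, Cdc6, Cdt1, Clspn, Rfc3, Lig1, Pold1, Pold3, Gins3, Uhrf1 and Pola1. They include members that were called and members that were not, and a match is a description of the letters only. Gmnn, Mcm4, Gins1, Gins2, Gins4, Prim2, Pole and Rfc2 had no window.

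Among the helicase activators, Gins4 had clone means of 48.9, 48.1 and 49.1 TPM, while Gins1, Gins2 and Gins3, which build the same 4-subunit complex, had means over all samples of 2.27, 1.90 and 7.55 TPM. Cdc45, which joins the ring at firing origins, had means of 2.75, 2.63 and 4.11 TPM. It was not called between Rop7-III and Rop7-II (log2 difference 0.50, adjusted p = 0.0469 from limma), although all Rop7-III samples lay above all others. Mcm10, an initiation factor, was listed at 0, 0.12 and 0.28 TPM in Rop7-I, at 0.3, 0.12 and 0 TPM in Rop7-II and at 0.37, 0.86 and 0.9 TPM in Rop7-III. These untested values were highest in the 3 Rop7-III samples, all under 1 TPM.

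Of the 8 polymerase and primase genes, the primase subunits were called and no polymerase subunit was. Primase makes the RNA primers from which polymerase alpha starts. Its catalytic subunit Prim1, on chromosome 10 from 128015215 to 128030030, had 22.1, 21.0 and 26.0 TPM in the Rop7-I samples, 31.6, 28.4 and 28.5 TPM in Rop7-II and 22.3, 24.2 and 21.99 TPM in Rop7-III. All Rop7-II samples lay above all others. Rop7-II exceeded the mean of both others by 0.35 on the log2 scale (SE 0.07, adjusted p = 0.00695 from limma). Without Rop7-II replicate 1, the highest of the 9 samples, the difference was 0.30 and the adjusted p 0.0283, so that the call was lost. It was also lost without any other sample except Rop7-I replicate 3, with differences of 0.32 to 0.38 and adjusted p from 0.0115 to 0.0198.

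The large subunit Prim2, on chromosome 1 from 33453808 to 33669808, followed another order. It had 13.0, 15.0 and 13.9 TPM in the Rop7-I samples, 12.1, 14.2 and 12.3 TPM in Rop7-II and 10.3, 9.46 and 8.64 TPM in Rop7-III. The Rop7-III samples were the lowest, and the other clones overlapped. Rop7-III differed from Rop7-I by -0.52 (SE 0.09, adjusted p = 0.00645 from limma) and from Rop7-II by -0.40 (adjusted p = 0.0106), which misses the threshold. The call against Rop7-I was lost without any Rop7-I or Rop7-III sample or Rop7-II replicate 3, with differences of -0.58 to -0.46 and adjusted p from 0.0108 to 0.0299, and it held under 6 of 18 other settings.

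Pola2, the accessory subunit of polymerase alpha, was the most abundant of the step at 72.6, 70.6 and 70.5 TPM in Rop7-I, Rop7-II and Rop7-III. Its catalytic partner Pola1 was the lowest at 3.83, 3.48 and 4.83 TPM. Polymerase delta, which copies mainly the lagging strand, had Pold1, Pold2 and Pold3 at means of 45.4, 35.3 and 31.7 TPM, while Pole, the catalytic subunit of the leading-strand polymerase, lay at 4.78 TPM. The catalytic subunits of the polymerases alpha and epsilon were thus the least abundant members of the step.

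In the clamp step Pcna, on chromosome 2 from 132249286 to 132253180, was called. It had 216, 204 and 207 TPM in the Rop7-I samples, 235, 222 and 209 TPM in Rop7-II and 186, 190.3 and 185 TPM in Rop7-III. All Rop7-III samples lay below all others, and Rop7-I and Rop7-II overlapped. The log2 difference between Rop7-III and Rop7-II was -0.25, or 1.19-fold (SE 0.04, adjusted p = 0.00318 from limma), and without Rop7-II replicate 1 it was -0.21 (adjusted p = 0.00607). The call was lost without Rop7-III replicate 1 (-0.24, adjusted p = 0.0159), replicate 2 (-0.26, adjusted p = 0.011) or replicate 3 (-0.24, adjusted p = 0.0151). Pcna has processed pseudogenes, and reads shared with them could be assigned to either. The 5 clamp loader genes Rfc1 to Rfc5, which open Pcna and close it around DNA, were not called by limma in any comparison. At an unadjusted p under 0.05, 1 of them passed in each pair of clones (Rfc2 for Rop7-III with Rop7-II, Rfc1 for Rop7-III with Rop7-I and Rfc4 for Rop7-I with Rop7-II), where 37.8, 28 and 32.1% of all genes passed. Rfc2 was the highest of them at 70.9, 72.6 and 66.2 TPM and Rfc4 the lowest at 7.76, 10.2 and 8.53 TPM.

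Of the 3 subunits of replication protein A, the complex that covers single-stranded DNA, only Rpa1 was called. Rpa1, on chromosome 11 from 75300259 to 75348454, had 194, 193 and 196 TPM in the Rop7-I samples, 170.4, 174 and 183 TPM in Rop7-II and 242, 237 and 227 TPM in Rop7-III. The clones did not overlap, with Rop7-III highest and Rop7-II lowest. Rpa1 was 1.34-fold higher in Rop7-III relative to Rop7-II T cells, a log2 difference of 0.42 (SE 0.03, adjusted p = 5.99e-05 from limma), and it was 0.39 without Rop7-II replicate 1 (adjusted p = 1.84e-04). Rop7-III exceeded Rop7-I by 0.27 (adjusted p = 0.00139), whereas Rop7-I exceeded Rop7-II by 0.14, which was not called (adjusted p = 0.0207). Rop7-II was below the mean of both others, with a log2 difference of -0.28 (adjusted p = 2.65e-04) that was -0.26 without Rop7-II replicate 1 (adjusted p = 0.00102).

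Its partners moved little. Rpa2 had clone means of 48.9, 50.4 and 49.1 TPM and Rpa3 of 30.6, 31.5 and 30.2 TPM, with log2 differences from -0.06 to 0.00 in the 3 pairs. Rpa1 overlaps the neighbouring gene Smyd4 by 22 bases, and the libraries do not mark strand. Smyd4 was also higher in Rop7-III relative to Rop7-II T cells (0.32, adjusted p = 0.00571 from limma, and 0.33 with 0.0138 without Rop7-II replicate 1), at 18.6, 19.0 and 17.8 TPM in Rop7-II and 23.2, 22.8 and 24.2 TPM in Rop7-III. The part of the overlap in either difference was not tested.

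The lagging-strand genes Fen1, a nuclease that trims primers, and Lig1, the ligase that seals the fragments, were not called by limma. At an unadjusted p under 0.05 both passed for Rop7-III with Rop7-II, and Lig1 for Rop7-III with Rop7-I, as did 37.8 and 28% of all genes. Fen1 had clone means of 17.6, 18.5 and 15.7 TPM and Lig1 of 23.3, 23.3 and 19.7 TPM. Both had their lowest mean in Rop7-III.

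In the nucleotide supply step Rrm2 and Ung were called, in opposite directions. Ung was placed in this step although it acts on DNA and does not make nucleotides. Rrm2, on chromosome 12 from 24708254 to 24714146, encodes the small subunit of ribonucleotide reductase, which in cycling cells limits the making of deoxynucleotides. It had 2.49, 2.53 and 3.01 TPM in the Rop7-I samples, 2.86, 3.18 and 2.28 TPM in Rop7-II and 5.91, 5.47 and 6.66 TPM in Rop7-III. All Rop7-III samples lay above all others, and Rop7-I and Rop7-II overlapped. On the log2(TPM + 1) scale, which understates changes at this level, Rop7-III exceeded Rop7-II by 0.90 (SE 0.13, adjusted p = 0.00106 from limma) and Rop7-I by 0.93 (SE 0.13, adjusted p = 0.00175). The former difference was 0.92 without Rop7-II replicate 1 (adjusted p = 0.00246). The call against Rop7-I was lost without Rop7-I replicate 1 or 2 or Rop7-III replicate 1 or 3, with differences of 0.87 to 0.94 and adjusted p from 0.0101 to 0.0119. Rrm1, the large subunit of the same enzyme, had means of 22.03, 20.3 and 20.6 TPM and was not called.

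Ung, on chromosome 5 from 114130366 to 114139321, encodes the glycosylase that removes uracil from DNA. It had 16.7, 16.4 and 16.1 TPM in the Rop7-I samples, 17.3, 17.7 and 16.8 TPM in Rop7-II and 10.6, 10.7 and 12.2 TPM in Rop7-III. The Rop7-III samples were well below the rest. All Rop7-I samples also lay below all Rop7-II samples, by a small margin. Rop7-III was lower than Rop7-II by 1.51-fold (log2 difference -0.59, SE 0.07, adjusted p = 2.88e-04 from limma) and lower than Rop7-I by 1.44-fold (-0.52, adjusted p = 0.00125). Without Rop7-II replicate 1 the difference from Rop7-II was again -0.59 (adjusted p = 0.00109). Rop7-II exceeded the mean of both others by 0.33 (adjusted p = 0.0032), which was lost without Rop7-II replicate 1 (0.33, adjusted p = 0.0116), replicate 2 (0.31, adjusted p = 0.0145) or replicate 3 (0.35, adjusted p = 0.0104), whereas Rop7-I and Rop7-II differed by only -0.07 (adjusted p = 0.516).

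Ung overlaps Alkbh2 by 868 bases on the reference. For Alkbh2 the difference of Rop7-III from Rop7-II was -0.38 (adjusted p = 0.122 from limma) and that from Rop7-I was -0.03 (adjusted p = 0.935), and neither passed the test. Among the other genes of nucleotide supply, Tyms, or thymidylate synthase, was the highest at 50.8, 43.2 and 46.5 TPM, and Dut, the dUTPase, stood at 25.3, 25.6 and 25.3 TPM. Tk1, the thymidine kinase of S phase, was the lowest at 2.53, 2.19 and 2.15 TPM. None of these was called.

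**Figure D4:**
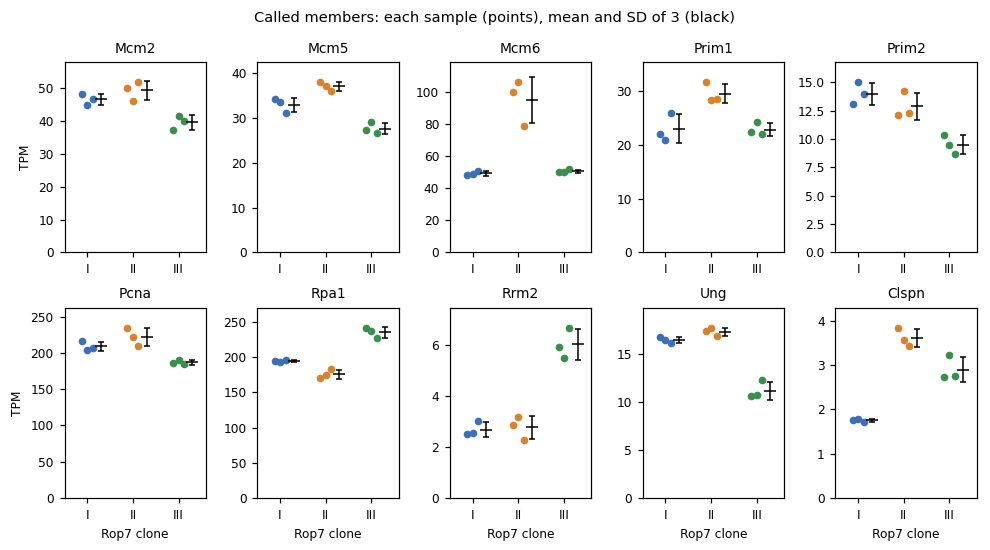
TPM (vertical axes, from 0) of the 10 members called in any comparison, with 1 point per sample by clone and the mean and SD of 3 samples in black. Rop7-II stands apart in Mcm6 and Prim1, and Rop7-III stands apart in Mcm2, Prim2, Pcna, Rrm2 and Ung. The 3 clones are separated in Mcm5, Rpa1 and Clspn, and also in Ung, where Rop7-I and Rop7-II lie close together.

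In the last step Clspn, on chromosome 4 from 126556957 to 126594533, encodes claspin, which carries the checkpoint signal from stalled forks. It had 1.75, 1.79 and 1.71 TPM in the Rop7-I samples, 3.84, 3.57 and 3.43 TPM in Rop7-II and 2.73, 3.22 and 2.75 TPM in Rop7-III. The clones did not overlap, with Rop7-I lowest and Rop7-II highest. The log2 difference between Rop7-I and Rop7-II was -0.75 (SE 0.11, adjusted p = 0.0018 from limma), and without Rop7-II replicate 1 it was -0.71 (adjusted p = 0.00421). Rop7-II exceeded the mean of both others by 0.49 (adjusted p = 0.00485), but by 0.46 with an adjusted p of 0.0136 without Rop7-II replicate 1. That call was lost without any other sample except Rop7-III replicate 2, with differences of 0.48 to 0.52 and adjusted p from 0.0106 to 0.0156.

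Slbp, which binds the stem-loop of histone messages, was the most abundant of this step at 70.2, 67.4 and 75.4 TPM. Chaf1a and Chaf1b, subunits of the histone chaperone CAF-1, had means of 2.39 and 15.6 TPM, the former the lowest of the step. Uhrf1, which recognises newly copied methylated DNA, had clone means of 2.05, 2.32 and 3.68 TPM. None was called, Uhrf1 with log2 differences of 0.51 and 0.62 from Rop7-II and Rop7-I (adjusted p = 0.0660 and 0.0520 from limma).

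The weakly and the strongly expressed members tended to opposite sides in Rop7-III T cells. The limit of 10 TPM was chosen after the values were seen, and no test was made. Of the 14 tested members with a mean under 10 TPM, 11 lay above Rop7-II in Rop7-III, with a median log2 difference of 0.14, and 46.6% of all tested genes in that range did so. It was 11 of 14 again without Rop7-II replicate 1 (median 0.19, against 52.2% of all genes). Of the 32 members at or above 10 TPM, 24 lay below, with a median of -0.11, and 45.5% of all genes in that range lay above. Without that sample 22 lay below (median -0.07, with 46.6% of all genes above). Against Rop7-I the counts were 11 of 14 above (median 0.26) and 22 of 32 below (median -0.08), where 46.1% of all genes under 10 TPM and 50.3% of those at or above it lay above. Both comparisons share the Rop7-III samples. The strongly expressed members also tended lower in Rop7-I relative to Rop7-II, with 21 of 32 below (median -0.04), where 46.1% of all genes lay above. Of the weakly expressed members 8 of 14 lay above there (median 0.05), as did 51.2% of all genes in that range. The counts for Rop7-I with Rop7-II are not given without Rop7-II replicate 1, the sample with the highest mean level of the members. That mean of log2(TPM + 1) was 4.36 there, and 4.31 and 4.26 in the other Rop7-II samples. The weakly expressed members include Rrm2, Uhrf1, Cdc45, Pola1 and Pole, of which only Rrm2 was called. Some weakly expressed members overlap more strongly expressed genes on the reference, and the libraries do not mark strand. Orc1 overlaps Prpf38a by 3632 bases (mean 39.8 TPM), Chaf1a overlaps Ubxn6 by 982 bases (144 TPM) and Rfc4 overlaps Eif4a2 by 185 bases (563 TPM). The part of such overlaps in these levels was not tested.

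**Figure D5:**
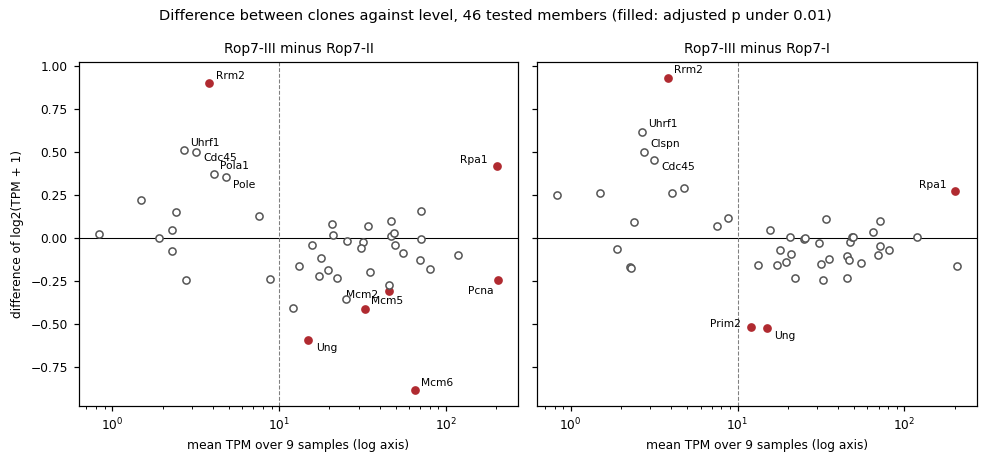
Difference in log2(TPM + 1) between Rop7-III and each other clone (vertical axes) against the mean TPM over 9 samples (horizontal log axes) for the 46 tested members, with called members filled. Left of the dashed line at 10 TPM, 11 of 14 points lie above 0 in both panels, and to its right most lie below 0.

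The genes around the called members were read as well, from RefSeq positions. Of 11 tested genes within 1 Mb of Mcm6, Cxcr4 and Mgat5 were called for Rop7-II against both other clones (18.2%, where 12.2% of all genes were), and both moved against Mcm6. Cxcr4, a chemokine receptor, had 147, 132 and 149 TPM in Rop7-II and 221 to 265 TPM in the other samples, a log2 difference of -0.75 (adjusted p = 2.35e-05 from limma), and -0.77 without Rop7-II replicate 1 (adjusted p = 9.13e-05). Mgat5, an enzyme of N-glycan branching, had 8.96, 8.84 and 11.9 TPM in Rop7-II and 18.9 to 24.6 TPM elsewhere, a difference of -1.05 (adjusted p = 6.59e-05), and -0.99 without that sample (adjusted p = 3.16e-04). Around Mcm5 none of 3 tested genes was called in that comparison, and around Prim1 5 of 73 were (6.85%), 4 of them in its direction. Around Rrm2 3 of 6 tested genes were called for Rop7-III with Rop7-II (50%, where 12.3% of all genes were), and 1 of these, Klf11, moved with it. For Rop7-III with Rop7-I, where Rrm2 was called as well, 0 of these 6 genes were called, where 4.85% of all genes were.

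A further list of 56 replication genes that are not members was counted the same way, and 54 of them were tested. Comparing Rop7-III with Rop7-II, 7 were called (13%, against 12.3% of all genes). Dck and Samhd1 were higher and Cdc7, Timeless, Pole4, Rnaseh2c and Impdh1 lower in Rop7-III. Comparing Rop7-III with Rop7-I, Timeless, Impdh1 and Topbp1 were called (5.56%, against 4.85%), all lower in Rop7-III. Comparing Rop7-I with Rop7-II, 6 were called (11.1%, against 7.53%). Of these, Shmt1, Dck and Samhd1 were higher and Cdc7, Rnaseh2c and Impdh1 lower in Rop7-I. Against the mean of both others 8 were called in Rop7-II (14.8%, against 12.2%). Without Rop7-II replicate 1 the counts were 9, 3, 4 and 7 (16.7, 5.56, 7.41 and 13%), against 10.6, 6.49, 6.69 and 9.23% of all genes in these fits.

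Several of these genes act on nucleotide pools. Impdh1, which commits purines to guanine nucleotides, had clone means of 142, 177 and 114 TPM, and Rop7-II exceeded the mean of both others by 0.48 (SE 0.04, adjusted p = 9.34e-05 from limma), and by 0.47 without Rop7-II replicate 1 (adjusted p = 5.42e-04). Samhd1, which breaks down deoxynucleotides in resting cells, had means of 253, 145 and 232 TPM and was lower in Rop7-II, with a difference of -0.74 (adjusted p = 4.46e-04) and of -0.62 without that sample (adjusted p = 5.10e-04). Dck, the deoxycytidine kinase of the salvage pathway, had 103, 88.1 and 116 TPM, with a difference of -0.30 (adjusted p = 4.00e-04), and -0.30 again without it (adjusted p = 0.00166). Cdc7, the kinase that fires origins by acting on the Mcm ring, was higher in Rop7-II by 0.45 (adjusted p = 6.90e-04), or 0.43 without it (adjusted p = 0.00347), at 14.9, 20.2 and 14.1 TPM. Rnaseh2c, a subunit of the nuclease that removes ribonucleotides from DNA, had 56.3, 73.4 and 51.2 TPM, a difference of 0.45 (adjusted p = 1.84e-04), or 0.46 without it (adjusted p = 7.32e-04). Timeless, which protects forks, was lowest in Rop7-III, with means of 43.2, 41.8 and 31.1 TPM and a difference from Rop7-I of -0.46 (adjusted p = 0.00143).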

How the data were processed

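Polyadenylated RNA of 9 samples, 3 per clone, was sequenced without strand information from 200 ng per sample after sorting to a purity of 90 to 95%, per the labels. The authors aligned and quantified the reads with RSEM 1.2.11 on the mm10 build and deposited TPM per gene. These TPM are normalized for length and library size, so that the depth of each sample is unknown and no counting interval was computed. The submitters' notes also name DESeq2 1.8.1, which needs counts and was not used here.

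Log2(TPM + 1) of the 12115 genes with a TPM above 1 in at least 1 sample was fitted with limma 3.58.1 in R 4.3.3, in which the 9 samples share an estimate of the spread that varies with the level of the gene, and no block was set. Two-sided p-values received a Benjamini-Hochberg adjustment over all tested genes within each of 4 comparisons, and genes were called under 0.01. Every adjusted p in the text is from this fit or from the alternative named. Alternatives were a pseudocount of 0.1 or 0.5, another filter, scaling, trend or threshold, a fit restricted to each pair of clones, a block for the replicate number, and each sample left out. Each called member was named with its value in every sample, and the highest and lowest gene of each step with clone means.

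The members, the further genes and the comparisons were chosen with earlier results of these data known. Gene positions and promoter windows are those of RefSeq on GRCm38.p6, and all 47 members and 12058 of the tested genes had a position.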

Additional observations from a re-analysis of the deposited data

How the results depend on the processing

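No called value changed direction under any alternative. Some calls held under all alternatives with an adjusted p under 0.01 and no 2-fold minimum. They were those of Mcm6, Mcm5 and Rpa1 in every comparison named for them, and of Ung between Rop7-III and either other clone. The calls of Rrm2 between Rop7-III and Rop7-II and of Clspn between Rop7-I and Rop7-II were also among them. Pcna and Mcm2 between Rop7-III and Rop7-II, and Prim2 and Rrm2 between Rop7-III and Rop7-I, were lost under at least 1 of these alternatives. So were Prim1, Clspn and Ung in Rop7-II against both others. With an adjusted p under 0.05, 12 members were called between Rop7-III and Rop7-II, 10 between Rop7-III and Rop7-I, 5 between Rop7-I and Rop7-II and 11 between Rop7-II and both others, against 25.1, 13.1, 17.9 and 23.9% of all genes. With a 2-fold minimum on the log2(TPM + 1) scale 0 were called in each, where 206, 128, 115 and 131 of all genes passed. That count rests on the scale and the samples. With a pseudocount of 0.1 Rrm2 differed by 1.10 and 1.14 (log2) between Rop7-III and Rop7-II or Rop7-I. Clspn differed by -1.004 between Rop7-I and Rop7-II at that setting. With a pseudocount of 0.5 Rrm2 differed by 1.04 between Rop7-III and Rop7-I. Without Rop7-II replicate 3 Mcm6 differed by -1.01 and -1.05 in Rop7-III and Rop7-I against Rop7-II. Mcm6 then differed by 1.03 in Rop7-II against both others. All these differences had an adjusted p under 0.01 from limma. Leaving out each sample in turn gave 5 to 8, 2 to 4, 2 to 3 and 3 to 5 members, against 6.69 to 10.6, 1.98 to 6.49, 3.38 to 6.69 and 7.63 to 9.23% of all genes. The lowest value of 2 between Rop7-III and Rop7-I came without Rop7-I replicate 1 or 2 or without Rop7-III replicate 1 or 3, and the lowest of 3 between Rop7-II and both others came without Rop7-II replicate 1 or 2. With the replicate number as a block, the replicate block gave 6, 3, 2 and 3 members, against 9.12, 3.08, 5.06 and 8.72% of all genes. Same-numbered samples of different clones had correlations of their deviations from the clone mean between -0.39 and 0.11, of which 1 of 9 exceeded 0.1. Differently numbered samples had correlations between -0.18 and 0.32, of which 6 of 18 exceeded 0.1. Same numbers thus did not go with higher correlations, and whether samples were paired or shared a batch is not settled by these values. The causes of these changes were not tested. The deposited TPM give no depth, which limits what can be said of members near 1 TPM, such as Cdc6, Orc1 and Mcm10.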
